A study of Homo sapiens with 9 samples.

Results

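The genes described here carry the symbols of mitochondrial ribosomal proteins. They were chosen by name, as every gene whose symbol starts with MRPL or MRPS followed by a digit, which gave 82 of the 14943 genes in the count table. By the annotation 78 of them are protein coding and 4 are pseudogenes. By symbol the 78 coding genes divide into 51 of the large subunit and 27 of the small subunit, the latter with MRPS36, whose protein is now placed in another complex. MRPS30 and MRPS18A were counted with the large subunit, where the current nomenclature places both proteins in spite of their symbols.

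SH-Sy5y cells, a human neuroblastoma line, were transfected for 48 h to raise the microRNA miR-1229-3p, and their polyadenylated RNA was sequenced to see which messages changed with it. Cells of the Ctrl. group received 40 pmol of a negative control oligonucleotide, those of the 10 nM group 20 pmol of it together with 20 pmol of the miR-1229-3p mimic, and those of the 20 nM group 40 pmol of the mimic without the control oligonucleotide. Each group had 3 libraries, numbered as in the sample titles, with totals of 17.4 to 28.2 M estimated counts over all 9. RNA from a pair of wells was pooled where possible, and nothing given here states that replicates came from separate cultures, so the p-values measure the spread between these libraries, which may be technical. Every group thus carries 40 pmol of transfected RNA, and 20 nM against Ctrl. compares mimic with control oligonucleotide rather than with no oligonucleotide. The comparisons of 10 nM and 20 nM with Ctrl. use the same control libraries.

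The mitochondrial ribosome translates the messages of mitochondrial DNA, which encode core subunits of the respiratory chain complexes and of the ATP synthase. Its ribosomal RNAs come from mitochondrial DNA, whereas all of its proteins are encoded in the nucleus, made in the cytosol and imported. Some of these proteins have a counterpart in bacterial ribosomes and others were added in the mitochondrial lineage, and cells with a high demand for respiration, neurons among them, depend on the supply of all of them. A microRNA pairs through its seed, bases 2 to 8 from its 5′ end, with sites in the 3′ untranslated region (UTR) of messenger RNAs and lowers them.

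The microRNA and the sites of the coding members that the results below turn on are shown here, since the seed is the part of the mimic that a target has to match. In the mature microRNA, which RefSeq (GRCh38.p14) places on the minus strand at chr5:179798278-179798300, capitals mark the seed. In the sites, read 5′ to 3′ along the message from the longest annotated 3′ UTR of each gene (GENCODE 44, GRCh38.p14), capitals mark the match. An 8-mer is GGTGAGAA, the 7-mers are its first 7 or its last 7 letters and the 6-mer is GTGAGA.
miR-1229-3p: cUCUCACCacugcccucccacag
MRPL30, 8-mer: tatttaaagatGGTGAGAAagtgttttcat
MRPL27, 8-mer: ctctttcactaGGTGAGAAttaaatgactt
MRPL51, 8-mer: aaagaaaagttGGTGAGAAtgttattggcg
MRPS33, 8-mer: aaaaggaaaatGGTGAGAAaggggtttgag
MRPL19, 7-mer: tgaacagaaatGGTGAGAgcagacatcct
MRPL20, 7-mer: actctagcctaGGTGAGAgcaggaccccg
MRPL42, first 7-mer: accttgtgaatGTGAGAAtattttgaatg
MRPL42, second 7-mer: cacaattacatGTGAGAAtagcaagtaga
MRPL42, last 7-mer: accttaataaaGTGAGAAaaaacaagtcc

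These are the 4 members with an 8-mer and the 3 further members that carry a 7-mer and passed the test in a comparison below. The MRPL30 site lies on the plus strand of chromosome 2 at chr2:99195756-99195763 and begins at base 51 of a 3′ UTR of 3856 bases. The MRPL19 site, at chr2:75661904-75661910 on the plus strand, begins at base 6619 of a UTR of 6921 bases and so close to its far end. The MRPL42 UTR is the longest of these, with 14993 bases, and its 3 sites begin at bases 4420, 4651 and 14625. The sites of MRPL27 (chr17:50368831-50368838, minus strand) and MRPL20 (chr1:1405309-1405315, minus strand) are in UTRs of transcripts that are not the canonical ones of these genes.

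Replicates of every group differed beyond counting noise (chi-square per degree of freedom 4.78 to 47), and 20 nM replicate 3 stood apart from the series. Its score was 47.4 on the first principal component of all genes, which held 30.4% of the variance, where the remaining libraries had scores of -17.1 to 7.72. EIF4G2, a translation initiation factor, fell by 1.16 on the log2 scale at 20 nM (SE 0.0652, n = 3 and 3, edgeR adjusted p = 2.16e-06 by the Benjamini-Hochberg method). The authors name it among the putative targets most clearly lowered in this same experiment. Its fall is therefore no independent check that the mimic acted. Levels are given in CPM, counts per 1000000 of the scaled library total. The 9 noradrenergic neuroblastoma markers used summed to 4813 to 5015 CPM in the controls, to 5189 to 5735 CPM in the 10 nM libraries and to 5023 to 6134 CPM in the 20 nM libraries. The 7 mesenchymal markers in the table summed to 62.2 to 97.8, 61.3 to 91.9 and 61 to 89 CPM, and the eighth, PRRX1, was not analysed here. Of the first list 2 of 9 (ISL1 and TH, the last at under 1 CPM in all libraries) were called lower at 20 nM (all genes 6.08%). Of the second list 1 of 7 (CD44, at 1.34 to 3.4 CPM in all libraries) was called higher (all genes 7.8%). Their part in the results on the mitochondrial ribosome was not tested. In such bulk samples, fewer cells of a type and less RNA per cell cannot be told apart.

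Control cells held the messages of the mitochondrial ribosome well above the usual gene. Per length of the main transcript, the 78 coding members had a median level of 25.3 CPM per kilobase in Ctrl. (lowest 4.7, highest 165), against 8.69 for the 14050 protein-coding genes of the table, and 73 of the 78 lay above that value. The median was 27.9 CPM per kilobase for the large subunit and 22.7 for the small subunit. From the lowest to the highest member the level per length differed 35.1-fold. Without division by length the coding members ran from 13.8 to 166 CPM in Ctrl.

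MRPL12, which forms the flexible stalk that brings translation factors to the ribosome, had the highest level of the large subunit, with 165 ± 5.37 CPM per kilobase (mean ± SD, n = 3 Ctrl. libraries, as for all levels per length). MRPL20, whose bacterial counterpart binds ribosomal RNA early in assembly, followed with 103 ± 5.08, and the next, MRPL23 at the polypeptide exit site, stood at 102 ± 3.21 CPM per kilobase. These latter 2 differed by less than their SD, whereas MRPL12 was far above both. The lowest levels of the large subunit were those of MRPL22 with 4.77 ± 0.305 and MRPL42 with 4.7 ± 0.152 CPM per kilobase, which again did not differ beyond their spread. For MRPL42 the count is divided by a main transcript of 15557 bases, and the longest annotated transcript gave the same 4.7.

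In the small subunit MRPS24, counterpart of a bacterial protein at the entry of the message channel, and MRPS21 led with 126 ± 3.96 and 116 ± 1.88 CPM per kilobase. At the other end MRPS11, a protein of the platform, had 9.86 ± 0.4 and MRPS33, which has no bacterial counterpart, 7.9 ± 0.244 CPM per kilobase. The length used decides part of this order. With the longest annotated transcript in place of the main one MRPL12 stayed first in the large subunit, but MRPL20 fell back from the second to rank 12 with 42.7 CPM per kilobase, and MRPS34 took the first place of the small subunit with 95.5 CPM per kilobase.

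**Figure D1:**
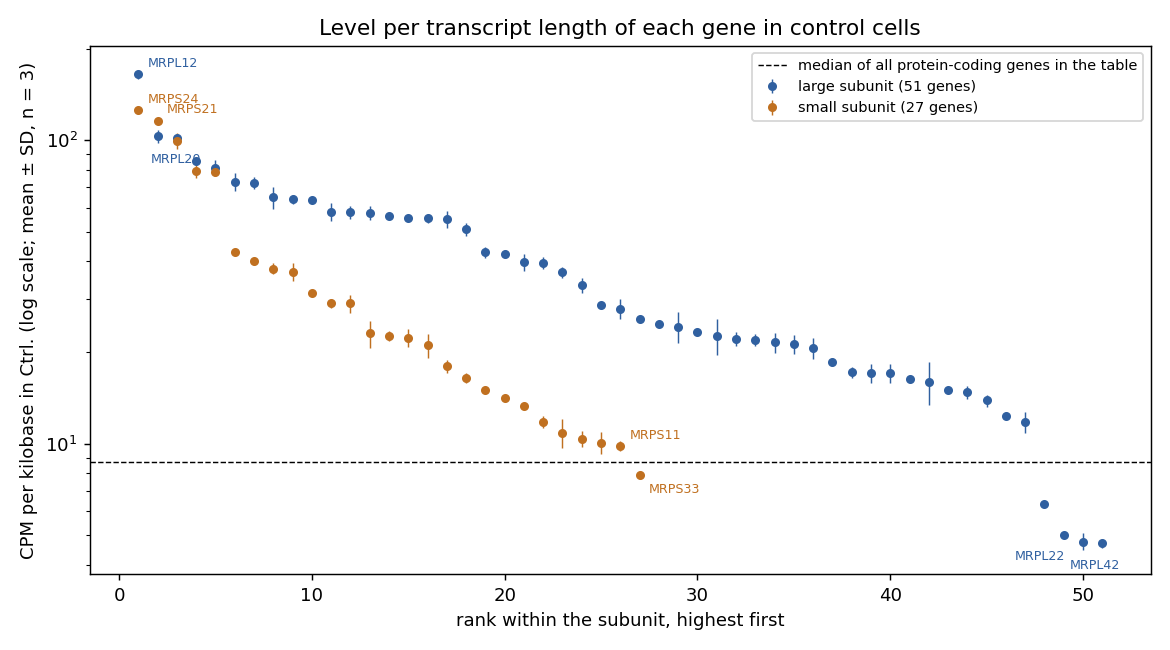
Level of the 78 coding genes in control cells in CPM per kilobase of the main transcript (log axis, mean ± SD of 3 libraries), ranked within the large (blue) and small (orange) subunit. MRPL12 leads at 165 CPM per kilobase, MRPL42 is last at 4.7, and 73 of the 78 genes lie above the dashed line at 8.69, the median of all protein-coding genes in the table.

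In CPM, which is not corrected for length, the 78 coding members together made up 3655, 3777 and 3786 CPM in the control libraries (replicates 1 to 3). The 10 nM libraries held 3801, 3911 and 3994 CPM, and the 20 nM libraries 3854, 4118 and 4370 CPM. All 6 mimic libraries thus lay above all 3 controls, although 10 nM replicate 1 exceeded the highest control by little, and the values of the mimic groups overlapped each other. Among libraries of the same number the sum was lowest in Ctrl. and highest at 20 nM in all 3. As mean ± SD of 3 libraries this was 3739 ± 73.2, 3902 ± 96.8 and 4114 ± 258 CPM for the groups in that order. No test was made on this sum, since it is a score over chosen genes.

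The large subunit accounted for most of it, with 2321 ± 57.6 CPM in the controls, 2451 ± 74 CPM in the 10 nM group and 2583 ± 198 CPM in the 20 nM group. The small subunit stood at 1419 ± 17.2, 1451 ± 23.8 and 1532 ± 60.6 CPM. The ratio of the large to the small sum was 1.61 to 1.66 in the controls, 1.67 to 1.72 at 10 nM and 1.62 to 1.75 at 20 nM, so that the 20 nM and control ranges overlapped. The sum was highest in 20 nM replicate 3, and scatter between replicates was widest in its group. The median SD of log2 CPM over the coding members was 0.0634 for the controls, 0.0609 for 10 nM and 0.137 for 20 nM (all genes 0.0822, 0.0895 and 0.166).

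**Figure D2:**
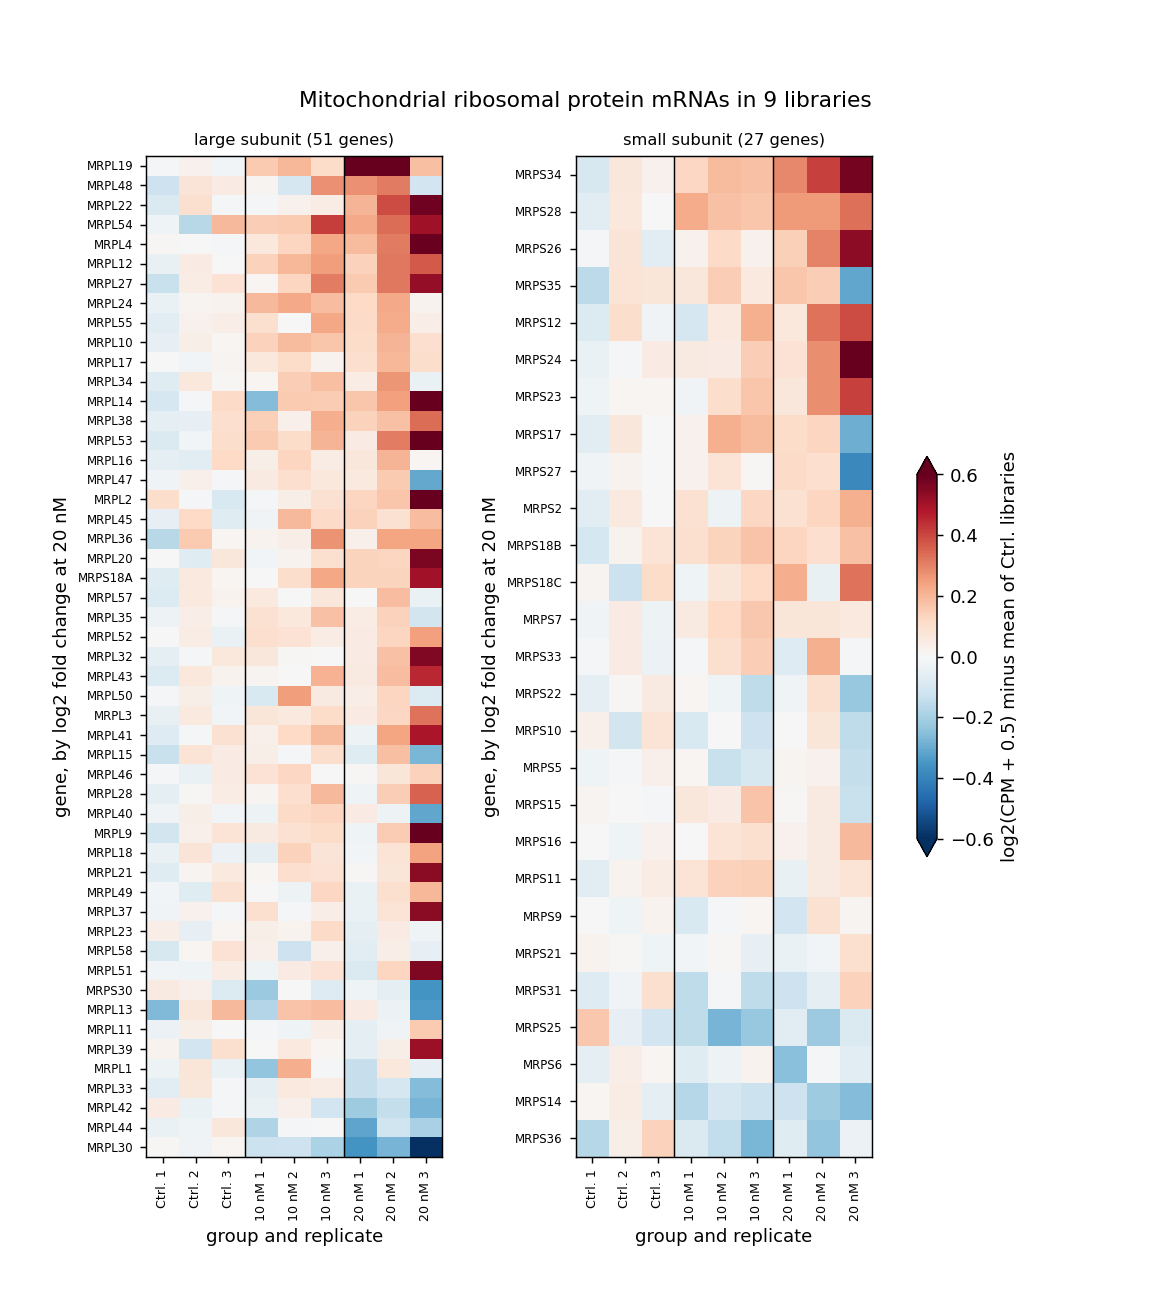
Each row is a coding gene and each column a library; the colour gives log2(CPM + 0.5) minus the mean of the 3 Ctrl. libraries, from blue (lower) to red (higher), with values past ± 0.6 at the end of the scale. Most rows turn red from left to right, MRPL30 at the foot of the large subunit turns blue, and the column of 20 nM replicate 3 holds the deepest colours of either kind.

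The first comparison asked which of these messages changed at the lower concentration. At 10 nM, 0 of the 82 members passed the threshold of 0.05 for the adjusted p in edgeR (quasi-likelihood test over all 14943 genes), where 0.649% of all genes did (0.221% higher, 0.428% lower). At an unadjusted p under 0.05 there were 12 of 82 members, 10 with a positive and 2 with a negative value, where 13.9% of all genes had such a p, a similar share. DESeq2 called 2 members, MRPL12 and MRPL24, both higher (adjusted p = 0.0339 and 0.049), where it called 1.46% of all genes. The median log2 fold change of the 82 members was 0.06, against 0.00 for all genes, and 55 of the 82 had a positive value.

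Log2 fold changes at 10 nM ran from -0.23 to 0.22 among the coding members. The largest positive value belonged to MRPL24, a protein at the exit of the nascent chain, with 54.7, 56.9 and 57 CPM in Ctrl. and 64.4, 65.8 and 63.9 CPM at 10 nM. These groups did not overlap, and the log2 fold change of 0.22 (SE 0.05, n = 3 and 3) still missed the threshold (edgeR adjusted p = 0.0782). The most negative value was that of MRPS25, with 118, 102 and 97.3 CPM in Ctrl. and 94.7, 86.7 and 90 CPM at 10 nM (log2 fold change -0.23, SE 0.0705, edgeR adjusted p = 0.172).

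Over the list, the 3 libraries of 10 nM lay above all 3 controls for 18 of the 82 members (22%), where 10.1% of all genes did so, and below them for 3 members (3.66%, all genes 9.9%). The 3 lower ones were MRPL30, MRPS14 and MRPS25. Leaving out 20 nM replicate 3 took the count at 10 nM from 0 to 7 (5 higher, 2 lower, with 8.82% of all genes called then) when 2 surrogate variables were estimated, and left it at 0 when their number was kept at 1.

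At 20 nM more of the members passed the test. In this comparison with Ctrl., 8 of the 82 (9.76%) were called by edgeR, 7 higher and 1 lower, while of all genes 13.9% were called, 7.8% higher and 6.08% lower. Of the large subunit MRPL19, MRPL4, MRPL12 and MRPL22 rose and MRPL30 fell. Of the small subunit MRPS34, MRPS26 and MRPS28 rose and 0 of 27 fell. In the whole list 21 members had an unadjusted p under 0.05, 16 with a positive and 5 with a negative value (all genes 28%). DESeq2 called 6 members, 5 higher and 1 lower, and 12.2% of all genes. Over all 82 the median log2 fold change was 0.07 (all genes 0.00) and 57 values were positive (all genes 50%).

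The individual libraries lay above all controls for 24 of the 82 members at 20 nM (29.3%, all genes 15.2%) and below them for 6 (7.32%, all genes 13.7%). The 6 lower ones were MRPL30, MRPL33, MRPL42, MRPL44, MRPS14 and the pseudogene MRPS31P5. The count of 8 called members moved with the libraries used. Leaving out Ctrl. replicate 1 gave 4 (10.1% of all genes), leaving out Ctrl. replicate 3 gave 3 (9.93%) and leaving out 20 nM replicate 2 gave 4 (7.19%). It was 27 (21 higher, 6 lower) without 20 nM replicate 3, where 29.2% of all genes were called, or 14 there with 1 surrogate variable instead of 2 (17.8% of all genes). The 8 members were among those called in both of the latter fits.

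When the fit blocked on the replicate number and held no surrogate variable, 16 members were called at 20 nM (14 higher, 2 lower, with 13.6% of all genes), and the 8 were among them. The further ones were MRPL14, MRPL27, MRPL38, MRPL54, MRPS12, MRPS23 and MRPS24 with higher values (log2 fold change 0.22 to 0.42) and MRPL42 with a lower one (-0.21, edgeR adjusted p = 0.0429). In the same fit MRPL19 was at 0.50 and MRPL30 at -0.42 (edgeR adjusted p = 0.0115 and 0.00977), and 0 members were called at 10 nM, with 0.0201% of all genes.

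**Figure D3:**
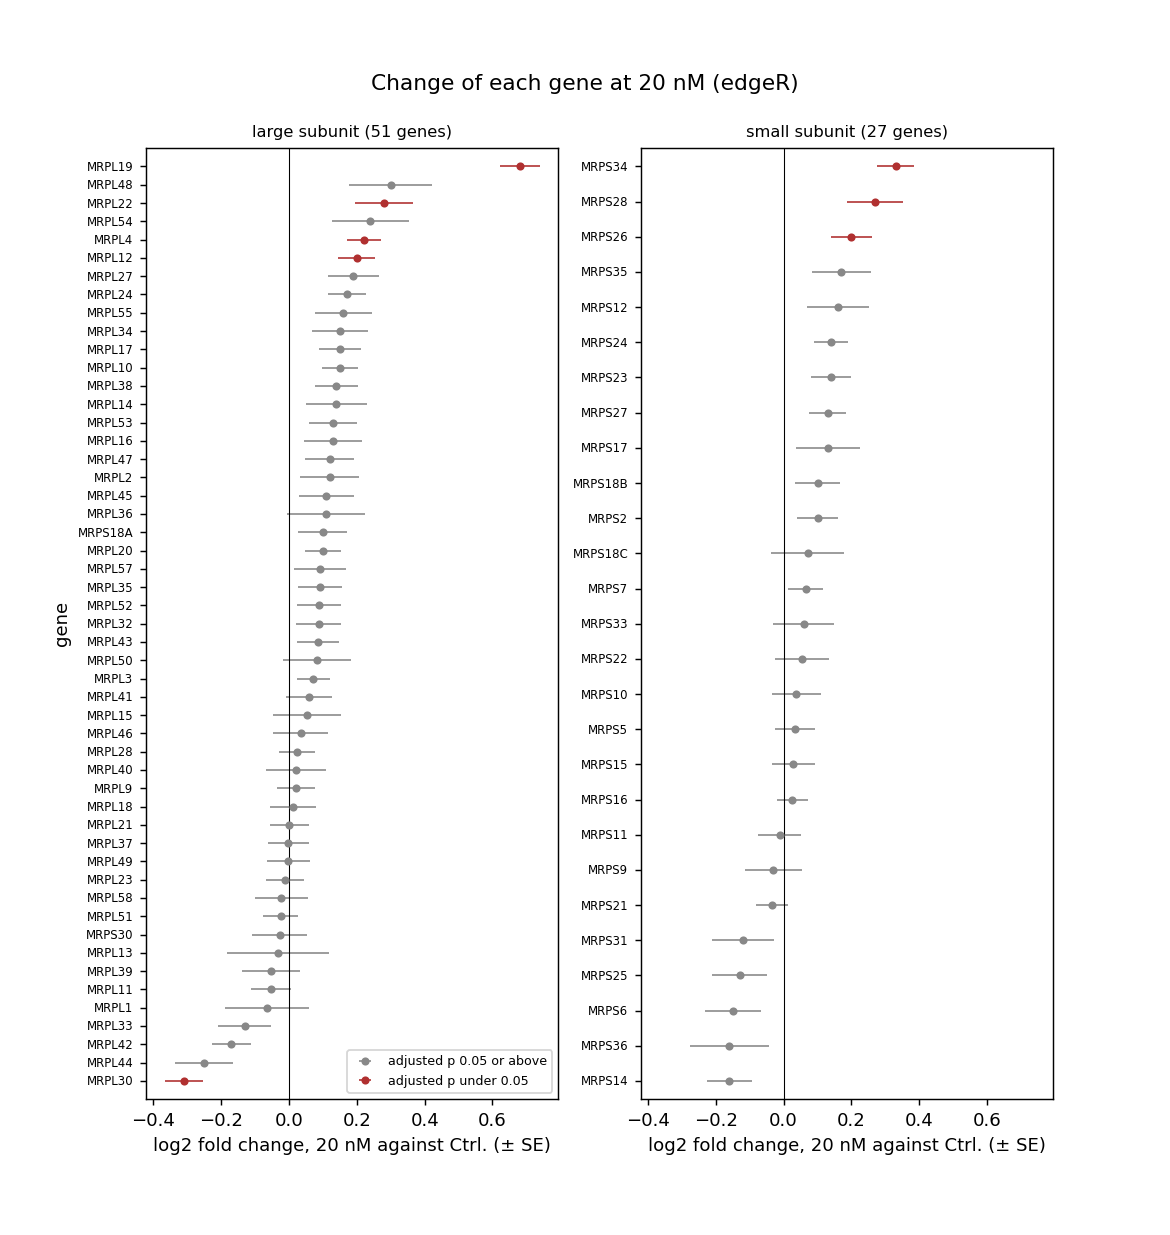
Log2 fold change of each coding gene at 20 nM against Ctrl. from edgeR, with bars of 1 SE (n = 3 and 3), sorted within each subunit; red marks the 8 genes with an adjusted p under 0.05. MRPL19 is highest at 0.68, MRPL30 lowest at -0.31, and 56 of the 78 values are above 0.

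MRPL19 showed the largest change of all members. It encodes a large subunit protein whose bacterial counterpart sits at the contact between the subunits, and its gene (ENSG00000115364) spans chr2:75646783-75690851 on the plus strand. Its message was at 38.9, 39.8 and 38.7 CPM in Ctrl., at 43.7, 45 and 42.3 CPM at 10 nM and at 61.4, 62.3 and 44.4 CPM at 20 nM. All mimic libraries lay above all controls, and of the 20 nM libraries replicates 1 and 2 were far above every other library while replicate 3 was within the range of 10 nM.

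The fitted log2 fold change of MRPL19 was 0.68 at 20 nM (1.61-fold, SE 0.0591, n = 3 and 3, edgeR adjusted p = 2.28e-05) and 0.21 at 10 nM (SE 0.0542, adjusted p = 0.115). Between the concentrations it was 0.48 (SE 0.0564, edgeR adjusted p = 0.000625), which made MRPL19 the 1 member of 82 called in the direct comparison of 20 nM with 10 nM, where 2.79% of all genes were called (1.91% higher, 0.883% lower). Without 20 nM replicate 3 this count was 5 with 2 surrogate variables (10% of all genes) and 1 with 1 (3.09%). Fitted values are corrected for the surrogate variable and can therefore differ from the ratio of the mean CPM. Without a surrogate variable the difference between the concentrations was 0.36 and no longer passed (edgeR adjusted p = 0.289), and at 20 nM against Ctrl. it was 0.52 (adjusted p = 0.0213). GCFC2, a gene on the opposite strand that overlaps MRPL19 over 38852 bases, had a log2 fold change of 0.07 at 20 nM (edgeR adjusted p = 0.609). Whether the counts used strand is not stated, so that reads of overlapping genes on opposite strands cannot be told apart.

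MRPL30, counterpart of a bacterial large subunit protein, was the member that fell. Its libraries held 67.6, 66.1 and 67.8 CPM in Ctrl., 61.3, 61.5 and 58.8 CPM at 10 nM and 52.2, 55.3 and 43.4 CPM at 20 nM. The 3 groups did not overlap at all, and 20 nM replicate 3 was the lowest library. At 20 nM the log2 fold change was -0.31 (SE 0.0557, n = 3 and 3, edgeR adjusted p = 0.00315) and at 10 nM it was -0.12 (SE 0.0485, adjusted p = 0.292). The difference between the concentrations, -0.19, missed the threshold (edgeR adjusted p = 0.0865).

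The MRPL30 gene (ENSG00000185414, chr2:99181152-99199561, plus strand) shares 18410 bases with a readthrough gene on the same strand, ENSG00000241962, which was at 0.324 to 0.708 CPM in all libraries. It starts 94 bases from MITD1 on the opposite strand, which stood at 13.4 ± 1.38 CPM in Ctrl. and 12.5 ± 1.62 CPM at 20 nM (log2 fold change 0.01, edgeR adjusted p = 0.962). The 8-mer shown above is in the main transcript of MRPL30. Its fall held without 20 nM replicate 3 (-0.33, edgeR adjusted p = 5.29e-05).

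MRPS34 had the largest change of the small subunit. The protein has no bacterial counterpart and is needed for a stable small subunit. Its message was at 92.8, 104 and 101 CPM in Ctrl., 108, 113 and 112 CPM at 10 nM and 121, 132 and 148 CPM at 20 nM. The groups did not overlap, and the log2 fold change was 0.33 at 20 nM (1.26-fold, SE 0.0535, n = 3 and 3, edgeR adjusted p = 0.00158) and 0.13 at 10 nM (adjusted p = 0.233). EME2, which overlaps MRPS34 by 341 bases on the opposite strand, had a log2 fold change of -0.26 at 20 nM (edgeR adjusted p = 0.0951). MRPL19, MRPS34 and MRPL30 were the members called at 20 nM under all 19 alternative settings of the analysis, among them those that leave out a library each. The setting that dropped the expression filter repeated the main fit, since that filter removed 0 genes. Holding 1 surrogate variable repeated the main fit by group, and holding 2 repeated the main fit by concentration. Counts out of 19 include these repeats.

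MRPL4, whose bacterial counterpart lines the exit tunnel, was at 69.2, 68.7 and 68.5 CPM in Ctrl., 72, 75.2 and 81 CPM at 10 nM and 78.5, 85.6 and 104 CPM at 20 nM. Its controls agreed closely, and all mimic libraries lay above them. The log2 fold change at 20 nM was 0.22 (SE 0.0501, n = 3 and 3, edgeR adjusted p = 0.0114), and the call was lost without 20 nM replicate 2 (0.19, adjusted p = 0.0892) or without Ctrl. replicate 3 (0.19, adjusted p = 0.0527). The stalk protein MRPL12 rose from 161, 172 and 166 CPM in Ctrl. to 183, 207 and 215 CPM at 20 nM (log2 fold change 0.20, SE 0.0544, edgeR adjusted p = 0.0256). At 10 nM it was already at 183, 191 and 198 CPM, and the step from 10 nM to 20 nM was 0.02 on the log2 scale (edgeR adjusted p = 0.894). The call of MRPL12 at 20 nM was lost without Ctrl. replicate 1 (0.18), Ctrl. replicate 3 (0.19) or 20 nM replicate 2 (0.13), with edgeR adjusted p of 0.0797 to 0.231.

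MRPL22, which reaches from the exit site into the tunnel, was among the members of low level. It had 14.2, 16.2 and 15 CPM in Ctrl., 15, 15.4 and 15.6 CPM at 10 nM and 17.5, 20 and 22.9 CPM at 20 nM. Only the 20 nM libraries stood apart from the controls here, with a log2 fold change of 0.28 (SE 0.0869, n = 3 and 3, edgeR adjusted p = 0.0471). At 10 nM the value was -0.01 (adjusted p = 0.975).

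Of the remaining called members of the small subunit, MRPS26, a mitochondrial addition to the particle, was at 79.8, 84.8 and 76.9 CPM in Ctrl., 81.9, 87.2 and 81.8 CPM at 10 nM and 88.9, 98.9 and 117 CPM at 20 nM. Its 10 nM libraries overlapped the controls and its 20 nM libraries did not (log2 fold change 0.20, SE 0.0606, edgeR adjusted p = 0.0434). MRPS28, counterpart of a bacterial protein that helps to bind the message, had 14.4, 15.8 and 15.1 CPM in Ctrl., 17.7, 17.1 and 17 CPM at 10 nM and 18.1, 18.1 and 19.1 CPM at 20 nM. All its mimic libraries were above the controls, and the log2 fold change at 20 nM was 0.27 (SE 0.0819, edgeR adjusted p = 0.0484). Calls of MRPL22, MRPS26 and MRPS28 at 20 nM were kept under 10, 12 and 6 of the 19 alternative settings. They were lost, in edgeR, without Ctrl. replicate 1 (log2 fold change 0.24, 0.19 and 0.23 for the 3 genes), without Ctrl. replicate 3 (0.26, 0.15 and 0.26) and without 20 nM replicate 2 (0.22, 0.16 and 0.27), among others. MRPL22 and MRPS28 lay just inside the threshold, and MRPL24, MRPL42 and MRPL44 just outside it (edgeR adjusted p = 0.0606, 0.0612 and 0.0707).

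**Figure D4:**
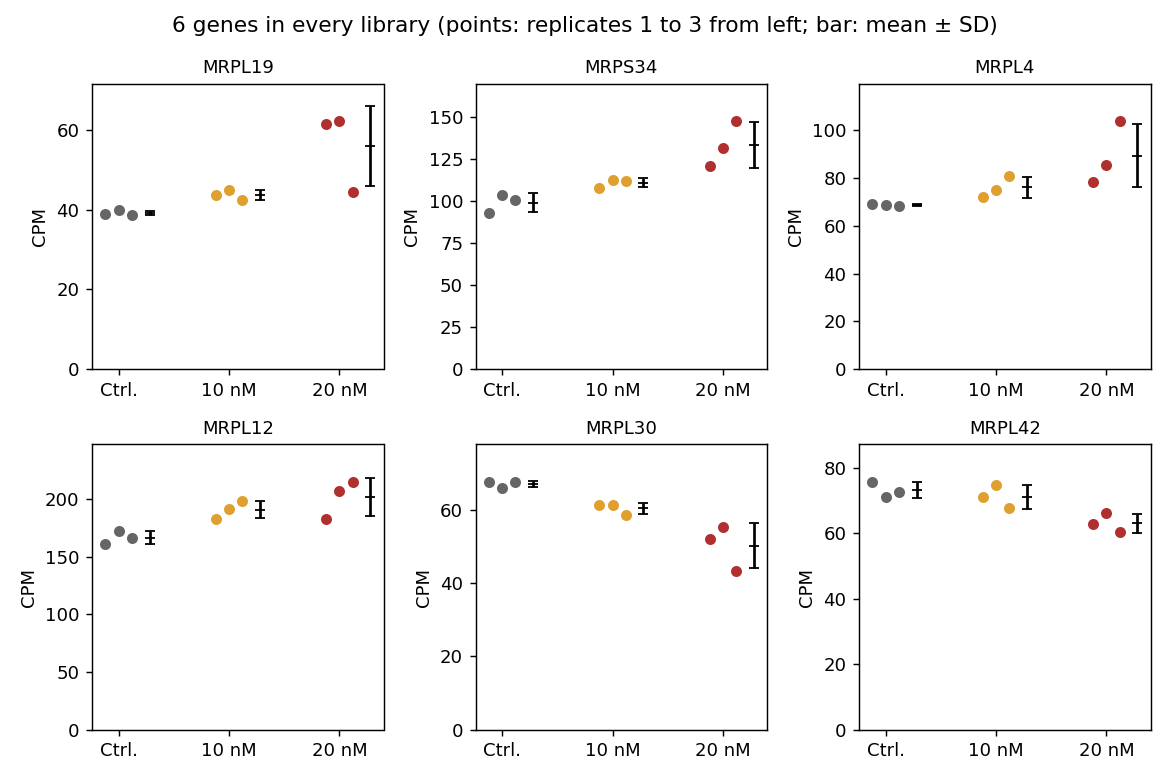
CPM of 6 members in every library, as points for replicates 1 to 3 from left to right in Ctrl. (grey), 10 nM (yellow) and 20 nM (red), with the mean and SD (n = 3) as a bar beside them and axes from 0. MRPL19 reaches 61.4 and 62.3 CPM in replicates 1 and 2 of 20 nM and 44.4 in replicate 3, MRPS34, MRPL4 and MRPL12 rise, and MRPL30 falls from 67.6 to as low as 43.4 CPM.

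Taking the concentration as a number over all 9 libraries gave the most calls. In this dose trend, in which fold changes are per 20 nM, 15 of the 82 members were called (18.3%), 12 higher and 3 lower, against 17.5% of all genes (9.84% higher, 7.69% lower). The 8 members called at 20 nM were all among these 15. The members that passed in addition were MRPS24, MRPL20, MRPL53, MRPL27 and MRPS23 with higher values and MRPL42 and MRPL44 with lower ones. In this fit the share of members called was close to that of all genes, as was that with an unadjusted p under 0.05, with 32 members (26 positive, 6 negative) and 30.8% of all genes. With the replicate block in place of surrogate variables 22 members were called in the trend (19 higher, 3 lower), with 16.4% of all genes.

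The count of 15 also moved with the libraries, to 6 without Ctrl. replicate 1 (11.8% of all genes), 5 without Ctrl. replicate 3 (12.2%), 5 without 20 nM replicate 2 (9.16%) and 30 without 20 nM replicate 1 (22.2%). These fits held 1 surrogate variable instead of 2, with which all 9 libraries gave 14. Without 20 nM replicate 3 it was 12. MRPL19, MRPS34, MRPL30 and MRPL4 were called in the trend under all 19 alternatives. MRPL19 had the steepest trend with 0.62 per 20 nM (SE 0.071, edgeR adjusted p = 8e-05), followed in evidence by MRPS34 with 0.36 (SE 0.0505, adjusted p = 0.000349) and MRPL30 with -0.36 (SE 0.0518, adjusted p = 0.000388).

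MRPS24 was at 81.8, 83.3 and 87 CPM in Ctrl., 87.3, 87 and 93.2 CPM at 10 nM and 89.2, 102 and 146 CPM at 20 nM. Most of its rise at 20 nM was in replicate 3, and the trend was 0.24 (SE 0.0469, edgeR adjusted p = 0.00299). MRPL20 followed the same pattern, with 72.4, 68.7 and 75.8 CPM in Ctrl., 71.5, 73.4 and 77.2 CPM at 10 nM and 79.3, 79 and 107 CPM at 20 nM (trend 0.18, SE 0.0482, adjusted p = 0.0208). At 20 nM against Ctrl. the edgeR adjusted p of both missed the threshold, with 0.0837 for MRPS24 and 0.241 for MRPL20. Without 20 nM replicate 3 the trend of MRPL20 was 0.12 and not called, whereas MRPS24 kept its call there and lost it without 20 nM replicate 2 (0.17).

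MRPL53, a mitochondria-specific neighbour of the stalk, had 34.1, 35.8 and 39 CPM in Ctrl. and 37.5, 44.9 and 63.1 CPM at 20 nM, where the lowest library overlapped the controls (trend 0.23, SE 0.0674, edgeR adjusted p = 0.031). MRPL27, counterpart of a bacterial protein close to the peptidyl transferase centre, had 40.4, 45.8 and 47.2 CPM in Ctrl. and 49.6, 55.4 and 64.2 CPM at 20 nM, all above the controls (trend 0.23, SE 0.0674, adjusted p = 0.0312). MRPS23, a mitochondria-specific protein of the small subunit, had 73.5, 75.4 and 75.4 CPM in Ctrl. and 78.3, 90.8 and 99.6 CPM at 20 nM (trend 0.17, SE 0.0539, adjusted p = 0.0422). In each of the 3 the highest 20 nM library was replicate 3. Without that library the trends of MRPL53 (0.16) and MRPS23 (0.15) were not called, and that of MRPL27 was. All 3 were lost without Ctrl. replicate 1 (0.17, 0.17 and 0.16 for MRPL53, MRPL27 and MRPS23), without Ctrl. replicate 3 (0.23, 0.26 and 0.17) or without 20 nM replicate 2 (0.17, 0.19 and 0.10).

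The lower members of the trend were both mitochondrial additions to the large subunit beside MRPL30. MRPL42 was at 75.7, 71.1 and 72.4 CPM in Ctrl., 71, 74.7 and 67.5 CPM at 10 nM and 62.9, 66 and 60.2 CPM at 20 nM, with the 20 nM libraries below all others (trend -0.20, SE 0.0516, edgeR adjusted p = 0.0148). MRPL44, a protein with a fold of the RNase III family, was at 28.2, 28.5 and 30.5 CPM in Ctrl. and 23.2, 26.7 and 25.3 CPM at 20 nM (trend -0.27, SE 0.0729, adjusted p = 0.0218). The 20 nM and control groups of MRPL44 did not overlap either. Calls of MRPL42 and MRPL44 in the trend were kept under 14 and 9 of the 19 alternatives, and both were lost without Ctrl. replicate 1 (-0.17 and -0.26) or Ctrl. replicate 3 (-0.20 and -0.21).

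Members were also counted by position in the particle, beside 13.9% of all genes called at 20 nM and 17.5% in the trend. Of the 5 stalk proteins (MRPL10, MRPL11, MRPL12, MRPL53 and MRPL54) 1 rose at 20 nM and 2 in the trend, with a median log2 fold change of 0.15 at 20 nM. MRPL11 alone of them had a negative value (-0.05, edgeR adjusted p = 0.603). MRPL10, the base of the stalk, was at 71.6 to 75.8 CPM in Ctrl., 81.5 to 84.6 CPM at 10 nM and 79.5 to 85.4 CPM at 20 nM, without overlap with the controls in either group. Its log2 fold change at 20 nM was 0.15 (edgeR adjusted p = 0.0721).

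Of the 6 proteins of the central protuberance 0 were called at 20 nM and 0 in the trend by edgeR (2 and 2 with an unadjusted p under 0.05), with positive values for all 6 at 20 nM, from 0.01 for MRPL18 to 0.30 for MRPL48. MRPL48 was among the most variable members, with 16.1 to 18.6 CPM in Ctrl., 17.8, 16.4 and 21.4 CPM at 10 nM and 21.4, 22 and 16.2 CPM at 20 nM (edgeR adjusted p = 0.13). At the polypeptide exit site 1 of 6 (MRPL22) rose at 20 nM and in the trend, and the median at 20 nM was 0.14.

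Proteins with a bacterial counterpart and mitochondrial additions were counted apart, beside the same 13.9% and 17.5% of all genes. In the large subunit 5 of 30 with a counterpart were called at 20 nM (4 higher, 1 lower), with a median of 0.10, and 0 of the 21 additions by edgeR (4 with an unadjusted p under 0.05), with a median of 0.06. In the trend it was 7 of 30 (6 higher, 1 lower) and 3 of 21 (1 higher, 2 lower). In the small subunit 1 of 16 with a counterpart and 2 of 11 additions rose at 20 nM, and 2 of 16 and 3 of 11 in the trend. No difference between these classes was tested.

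The members whose symbols do not tell their place were not called in the main fits. MRPS18A, of the large subunit, had 25.6 ± 1.21 CPM in the control group, 27.7 ± 2.3 CPM in the 10 nM group and 30.9 ± 4.86 CPM in the 20 nM group (mean ± SD, n = 3), where the 20 nM libraries did not overlap the controls and the log2 fold change of 0.10 did not pass (edgeR adjusted p = 0.39). With the replicate block MRPS18A was called in the trend (0.27, edgeR adjusted p = 0.0458). Its relatives of the small subunit, MRPS18B and MRPS18C, had log2 fold changes of 0.10 (adjusted p = 0.359) and 0.07 (adjusted p = 0.729) at 20 nM in the main fit. MRPS18B was at 37.5, 41.1 and 42.9 CPM in Ctrl. and 44.2, 43.4 and 45.7 CPM at 20 nM, and MRPS18C at 15.8, 14.2 and 16.9 and at 18.2, 15.1 and 19.7 CPM. MRPS30 of the large subunit went from 36.5 ± 1.84 to 33.2 ± 4.18 CPM with overlapping groups (log2 fold change -0.03, edgeR adjusted p = 0.871).

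MRPS36, which despite its name is a subunit of the 2-oxoglutarate dehydrogenase complex rather than of the ribosome, was at 12.6, 14.6 and 15.7 CPM in Ctrl. and 13.5, 12 and 13.9 CPM at 20 nM (log2 fold change -0.16, edgeR adjusted p = 0.415). MRPL58, a release factor that became part of the large subunit, stayed at 35.5 ± 2.24 CPM in Ctrl. and 34.8 ± 1.39 CPM at 20 nM (log2 fold change -0.02, adjusted p = 0.89). MRPS21, the second highest member of the small subunit per length, was at 126 ± 2.04 CPM in Ctrl. and 126 ± 6.35 CPM at 20 nM. Of the coding members, 37 of 78 had a log2 fold change within 0.1 of 0 at 20 nM and 3 were past 0.3.

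The 4 pseudogenes matched by the rule were below the coding members, the lowest of which was at 13.8 CPM. MRPL45P2 was at 1.7 ± 0.317 CPM in Ctrl., MRPS17P1 at 0.607 ± 0.342, MRPS31P4 at 2.71 ± 0.0748 and MRPS31P5 at 10.7 ± 1.02 CPM (mean ± SD, n = 3). None of the 4 passed in any of the 4 comparisons of the main edgeR fits, and 1 had an unadjusted p under 0.05 at 20 nM. That was MRPS31P5, with 11.3, 9.57 and 11.4 CPM in Ctrl. and 8.62, 8.73 and 7.46 CPM at 20 nM (log2 fold change -0.29, SE 0.12, adjusted p = 0.132), while its parent MRPS31 had -0.12 (adjusted p = 0.455). With the replicate block MRPS31P5 was called lower in the trend (-0.38, edgeR adjusted p = 0.045). Annotated pseudogene copies exist for 36 of the 78 coding members, up to 8 for MRPS21 and 5 for MRPL42, and counts of such genes are uncertain where copies are nearly identical.

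Matches to the seed were about as common in these genes as in the table. Of the 78 coding members 15 (19.2%) had a 7-mer or 8-mer in the longest annotated 3′ UTR, against 22.6% of the 13777 genes with a 3′ UTR, whose median UTR was longer (1552 bases, members 570). An 8-mer was found in 4 members (5.13%, all genes 4.61%). Of the 15 members 2 were called at 20 nM (13.3%, all genes 13.9%), MRPL19 higher and MRPL30 lower. In the trend 5 were called (33.3%, all genes 17.5%), of which MRPL19, MRPL20 and MRPL27 rose and MRPL30 and MRPL42 fell. The median log2 fold change of the 15 at 20 nM was 0.05. Among the 52 members without even a 6-mer 6 rose and 0 fell at 20 nM by edgeR (all genes 7.8% and 6.08%). Their median was 0.09, and 10 had an unadjusted p under 0.05 (all genes 28%). The shares were not tested against those of all genes.

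The 4 members with an 8-mer thus differed among themselves. MRPL30 fell, as given above, and MRPL27 rose in the trend, with its 8-mer in a transcript other than the canonical one. MRPL51, a mitochondrial addition to the large subunit, was at 75.5, 74.9 and 78.8 CPM in Ctrl. and 71.8, 83.5 and 113 CPM at 20 nM, with overlapping groups (log2 fold change -0.02, SE 0.0518, edgeR adjusted p = 0.82). MRPS33 was at 32.9, 34.4 and 32.4 CPM in Ctrl. and 31.5, 38.6 and 32.9 CPM at 20 nM (0.06, SE 0.0893, adjusted p = 0.729). The start of the site lies at base 51 of the UTR in MRPL30, 281 in MRPL51, 1121 in MRPS33 and 1149 in MRPL27.

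Of the 9 members whose best match was the 7-mer of bases 2 to 8, MRPS14 had the most negative value. This protein of the head of the small subunit was at 35.3, 36.1 and 33.6 CPM in Ctrl., 31, 32.6 and 32 CPM at 10 nM and 32.1, 30.1 and 29.1 CPM at 20 nM, and both mimic groups lay below the controls (log2 fold change at 20 nM -0.16, SE 0.0663, edgeR adjusted p = 0.136). MRPS27, MRPS22, MRPS11, MRPL46, MRPL15 and MRPL10 had values between -0.01 and 0.15 at 20 nM, none of which passed. MRPS27, a protein with pentatricopeptide repeats, was at 85.3, 87.8 and 86.7 CPM in Ctrl. and 93.9, 92.8 and 66.2 CPM at 20 nM, where replicate 3 lay on the other side of the controls from replicates 1 and 2.
MRPS22 had 26.2, 27.4 and 28.3 CPM in Ctrl. and 26.9, 29.2 and 23.2 CPM at 20 nM. MRPL15 had 32.6, 37.9 and 37 and then 34, 40.6 and 29.5 CPM. MRPL17, which like MRPL42 carries the 7-mer ending in A, was at 37.6, 37.2 and 38 CPM in Ctrl. and 40.3, 43.3 and 40.5 CPM at 20 nM, above the controls throughout (log2 fold change 0.15, SE 0.0612, edgeR adjusted p = 0.129).

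**Figure D5:**
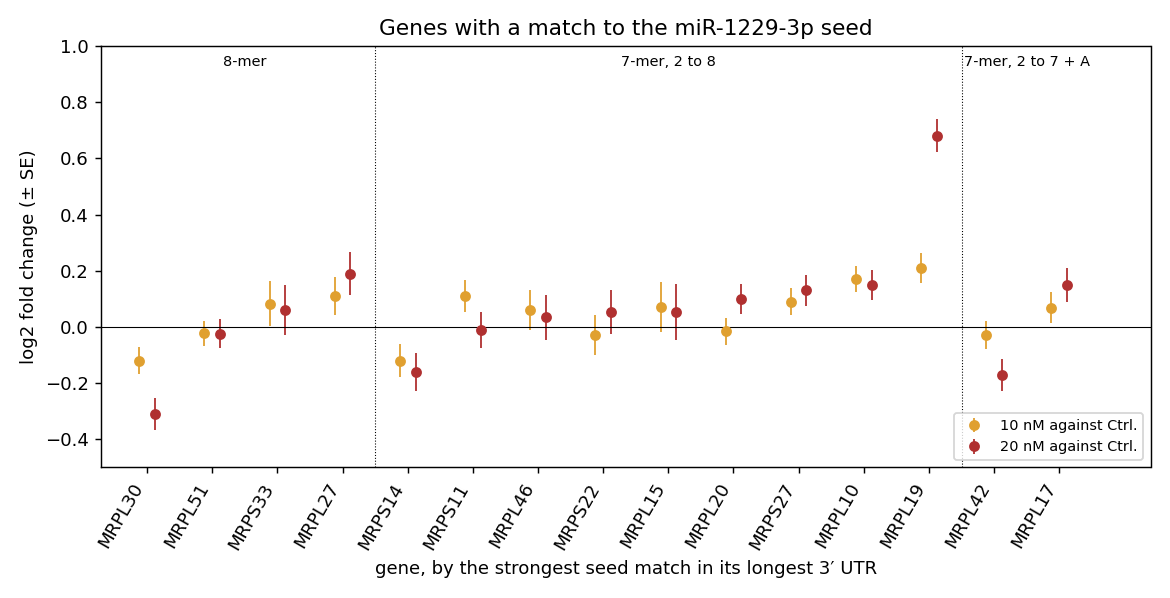
Log2 fold change (± SE, n = 3 and 3) at 10 nM (yellow) and 20 nM (red) against Ctrl. of the 15 members with a 7-mer or 8-mer match to the seed, grouped by the strongest match (8-mer, bases 2 to 8, bases 2 to 7 followed by A). MRPL30 is at -0.31 and MRPL19 at 0.68 for 20 nM, and most of the others are within 0.2 of 0.

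Promoters are described because the members are parts of the same particle. RefSeq sequences (GRCh38.p14) from 250 bases before to 50 bases after the start were matched for 69 of the 78 coding members, and were searched on both strands for 3 words, each counted for itself. The YY1 core AAGATGGC was in 20 of the 69 (29%), against 3.03% of all 27305 promoters and 5.09% of the 11209 promoters of genes in the table. The ETS core CCGGAAGT, bound by GABPA among others, was in 11 (15.9%, against 4.44% of all promoters and 8.35% of those in the table), and the NRF1 core CGCATGCG in 3 (4.35%, against 2.19% of all promoters and 3.7% of those in the table). These factors are known for their part in the transcription of nuclear genes of mitochondria.

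In 15 of the 20 the YY1 core ran in the direction of the gene and began 7 to 36 bases after the start. Members that passed the test are shown as examples, with capitals for the motif, and positions are counted from the start of the gene.
MRPS24, YY1 core: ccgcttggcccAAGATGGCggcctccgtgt
MRPL42, YY1 core: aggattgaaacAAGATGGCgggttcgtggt
MRPL20, YY1 core: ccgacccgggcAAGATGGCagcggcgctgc
MRPL20, ETS core: cgaccttcgccCCGGAAGTatcgcaggggc
MRPL22, NRF1 core: ccagagtattgCGCATGCGtgctgtccaga
MRPS34, ETS core: ctcttccggtgACTTCCGGccggaccgctg
The YY1 core began at base 20 in MRPS24 (chr7:43869491-43869498, minus strand), 9 in MRPL42 (chr12:93467522-93467529, plus strand) and 16 in MRPL20 (chr1:1407271-1407278, minus strand). The ETS core of MRPS34 stands in the reverse orientation at base -20 (chr16:1773147-1773154, minus strand). Of the 20 members with the YY1 core 3 were called higher (MRPL20, MRPL22 and MRPS24) and 1 lower (MRPL42) in the trend. Of all genes 9.84% were called higher there and 7.69% lower. A match is a description of letters and does not show that a factor binds.

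Other genes of the pathway were counted from lists, beside 7.8% of all genes called higher at 20 nM and 9.84% in the trend. Of the 5 ribosomal proteins with other symbols (DAP3, PTCD3, AURKAIP1, CHCHD1 and GADD45GIP1) 1 rose at 20 nM and in the trend, AURKAIP1, with 98, 107 and 98.7 CPM in Ctrl. and 113, 126 and 128 CPM at 20 nM (log2 fold change 0.23, SE 0.0571, edgeR adjusted p = 0.0199). Its call at 20 nM was lost without Ctrl. replicate 1 (0.20), Ctrl. replicate 3 (0.20) or 20 nM replicate 2 (0.15). Of 14 mitochondrial translation factors 1 rose at 20 nM and 3 in the trend, and 0 fell. The elongation factor GFM1 had 57.7, 54.5 and 61.1 CPM in Ctrl. and 73.6, 73.9 and 62.5 CPM at 20 nM (log2 fold change 0.35, SE 0.0603, edgeR adjusted p = 0.00218). GFM1 lost this call without a surrogate variable (0.28, adjusted p = 0.0596) and with the replicate block (0.27, adjusted p = 0.052). TUFM and MTFMT passed only in the trend (0.15 and 0.25, adjusted p = 0.0332 and 0.0476). TUFM kept its call under 12 of the 19 alternatives and MTFMT under 2, which for MTFMT were only settings that repeat the main fit. Each call was lost without Ctrl. replicate 1 (0.13 and 0.22), for example.

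Of 25 assembly and rRNA maturation factors 1 rose at 20 nM (all genes 7.8%) and 3 in the trend (all genes 9.84%), and 0 fell. FASTKD2, an RNA-binding protein of the mitochondrial RNA granules, was at 36.5, 36.3 and 36 CPM in Ctrl. and 43.2, 44.8 and 33.9 CPM at 20 nM, where replicate 3 lay below the controls (log2 fold change 0.29, SE 0.0752, edgeR adjusted p = 0.0222). RCC1L and TFB1M passed in the trend (0.18 and 0.21, adjusted p = 0.0147 and 0.0424). FASTKD2 lost its call at 20 nM without 20 nM replicate 1 (0.28), 20 nM replicate 2 (0.22) or Ctrl. replicate 3 (0.30), and its value was 0.16 without a surrogate variable (edgeR adjusted p = 0.351) and 0.15 with the replicate block (adjusted p = 0.26). In the trend RCC1L kept its call under 12 of the 19 alternatives and TFB1M under 3, counting the settings that repeat the main fit.

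Of the 13 messages of mitochondrial DNA that the ribosome translates, 0 were called at 20 nM by edgeR (all genes 13.9%). An unadjusted p under 0.05 was found for 0 of them (all genes 28%), with 9 negative values and a median of -0.10. At 10 nM 0 were called as well (all genes 0.649%), with 12 negative values and a median of -0.16. An unadjusted p under 0.05 was found there for 2, MT-ND3 and MT-ND6 (all genes 13.9%). In the trend 1 was called (all genes 17.5%), MT-ND4L, a subunit of complex I. Its libraries held 524, 438 and 429 CPM in Ctrl., 473, 353 and 337 CPM at 10 nM and 469, 332 and 109 CPM at 20 nM (trend -0.33, SE 0.0557, edgeR adjusted p = 0.00137). The low value of 109 CPM is again that of 20 nM replicate 3, without which the trend of MT-ND4L was -0.13 (edgeR adjusted p = 0.254). The call was also lost without Ctrl. replicate 1 (-0.24), without a surrogate variable (-0.61, edgeR adjusted p = 0.288) and with the replicate block (-0.77, adjusted p = 0.0835). Together the 13 reached 35254 to 43333 CPM in the controls, 30536 to 39620 at 10 nM and 29163 to 41000 at 20 nM, so that the groups overlapped, while each mimic library lay below the control of the same number. The mitochondrial ribosomal RNAs were not analysed here.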

How the data were processed

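Estimated counts per gene were deposited by the authors, who quantified reads against GRCh38.p13 with salmon, summed the values by gene symbol and filtered them with filterByExpr. The salmon version and the use of strand are not given in the sources used here. The authors' tables of corrected log2 values, fold changes and p-values were not used. The members and lists were chosen with earlier results of these data known. Groups and replicate numbers came from the sample titles. Deviations of same-numbered libraries correlated at 0.142 to 0.185 between Ctrl. and 10 nM and at 0.107 to 0.116 between Ctrl. and 20 nM, so the numbers were taken to pair the samples in these comparisons, from the data and not from a stated design. The main fits nevertheless hold surrogate variables and no replicate block, and gave 8 called members at 20 nM and 15 in the trend. With the block these were 16 and 22. The fit with the replicate block is given beside the main one where it differs. Between 10 nM and 20 nM 1 pair was at 0.0288.

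For testing, the values were rounded to whole numbers. In edgeR 4.0.16 (R 4.3.3) filterByExpr removed 0 of 14943 genes, and TMM scaling was applied. Variation that the design does not cover was modelled by surrogate variables from sva 3.50.0 (number from num.sv, seed 1, held between 1 and 3), giving 1 in the fit by group and 2 in the fit by concentration. The quasi-likelihood test was run over all 9 libraries, with Benjamini-Hochberg adjustment over all genes and a threshold of 0.05, and was tested on simulated data. SE is the fold change divided by the root of F. The CPM printed use TMM scaling only, without the surrogate variables. Library totals were 17.4 to 28.2 M, and the lowest estimated count of a coding member in a library was 205. DESeq2 1.42.0 served as an alternative.

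Annotation was GENCODE 44 (GRCh38.p14), in which 77 members matched by identifier and 5 by symbol. The main transcript (MANE Select or Ensembl canonical) gave lengths. Members described library by library were those past the threshold in any comparison, those with a 7-mer or 8-mer, the highest and lowest pair of each subunit per length, those whose symbols do not tell their place, and pseudogenes. Other members named, such as MRPL24, MRPS25, MRPL48, MRPS36 and MRPL58, were singled out after their values were seen. A marker gene is not reported here.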

Additional observations from a re-analysis of the deposited data

Results flagged for a closer look

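The change of MRPL19 differed between the concentrations. The direct comparison gave a log2 fold change of 0.48 for 20 nM against 10 nM (SE 0.0564, n = 3 and 3, edgeR adjusted p = 0.000625), and over 19 alternative settings the value ranged from 0.35 to 0.51. The adjusted p was 0.289 without a surrogate variable and 0.158 when replicate numbers entered as a block. Of the 20 nM libraries replicates 1 and 2 (61.4 and 62.3 CPM) lay above all 10 nM libraries (42.3 to 45 CPM), and replicate 3 (44.4 CPM) lay among them. Without that replicate the difference was 0.49.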

How the results depend on the processing

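For the members described singly, 136 fold changes were recomputed under 19 alternatives, some of which repeat the main fit as stated above. Of these 2580 values, 97 lost and 42 gained the call, and 0 that passed the threshold in either fit turned their direction. Counts of called members moved as follows. At 10 nM (0) DESeq2 called 2 (1.46% of all genes), and leaving out a library gave 0 to 7. At 20 nM (8) scaling by library totals gave 5 (13.6% of all genes), and leaving out a library gave 3 to 27. Without 20 nM replicate 3 and with 1 surrogate variable, a setting chosen after seeing the data, it was 14, against 27 with 2, and the 7 at 10 nM became 0. For 20 nM against 10 nM (1) it was 0 without a surrogate variable, and 1 to 5 when leaving out a library, the 5 being without 20 nM replicate 3 and with 2 surrogate variables (1 with 1). In the dose trend (15) it was 8 without a surrogate variable (8.27% of all genes), and 5 to 30 when leaving out a library. The cause was not tested.

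Same-numbered libraries correlated over 0.1 in 8 of 9 pairs, and 8 of 9 libraries correlated best with their own number. With the replicate block in place of surrogate variables the count was 0 at 10 nM (all genes 0.0201%) and 16 at 20 nM (14 higher, 2 lower, all genes 13.6%). It was 0 for 20 nM against 10 nM (all genes 0.83%) and 22 in the trend (19 higher, 3 lower, all genes 16.4%). MRPL44 lost its trend call there (-0.22, edgeR adjusted p = 0.0522). Members called in that trend but not in the main one were MRPL14, MRPL38, MRPL41, MRPL43, MRPL54, MRPS12, MRPS18A and, lower, the pseudogene MRPS31P5. Of the pathway genes described singly, GFM1 and FASTKD2 lost the call at 20 nM against Ctrl. Beside these and the added members the block changed no other call at 10 nM or 20 nM against Ctrl. among members, EIF4G2 and pathway genes called in the main fits. The cell type markers and the neighbouring genes were not followed with the block. Trend calls lost with the block among the pathway genes were those of TUFM (0.25, edgeR adjusted p = 0.051), RCC1L (0.34, 0.0515) and MTFMT (0.24, 0.0607). Those of TFB1M (0.17, edgeR adjusted p = 0.125), FASTKD2 (0.15, 0.23) and MT-ND4L (-0.77, 0.0835) were lost too.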

Other observations

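Some of these genes lie head to head with another gene without overlapping it. Of the 78 coding members 17 start within 1000 bases of such a protein-coding gene on the opposite strand. Members that overlap their opposite-strand neighbour at the start, such as MRPL13 with MTBP, are not counted for that neighbour. The share over all genes was not determined. In 1 case both partners are members: MRPL46 of the large subunit and MRPS11 of the small subunit start 63 bases apart. MRPL46 was at 18.2, 17.8 and 19 CPM in Ctrl., 19.5, 20 and 18.3 CPM at 10 nM and 18.4, 19.3 and 20.2 CPM at 20 nM. MRPS11 was at 31.9, 33.9 and 34.5 CPM in Ctrl., 35.4, 36.8 and 36.9 CPM at 10 nM and 32.4, 34.7 and 35.4 CPM at 20 nM. For MRPS11 the 10 nM libraries lay above the controls and the 20 nM libraries did not, and neither gene passed the test at 10 nM (edgeR adjusted p = 0.747 for MRPL46 and 0.41 for MRPS11) or at 20 nM (0.84 and 0.935). MRPL27 starts 13 bases from EME1, a DNA repair nuclease subunit, which was at 33.3 ± 1.04 CPM in Ctrl. and 31.1 ± 1.53 CPM at 20 nM (mean ± SD, n = 3) with a log2 fold change of -0.11 (edgeR adjusted p = 0.466), while MRPL27 rose in the dose trend. The difference between the partners was not tested.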
